A study of Mus musculus with 10 samples.

Results

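Tight junctions of the mouse epidermis are described here through 9 genes, Cldn1, Cldn4, Cldn7, Ocln, Marveld2, F11r, Tjp1, Tjp3 and Cgn. The genes were listed by name, but with earlier results of these data known, so no count over them is independent support. All 9 were listed in every one of the 10 RNA-seq libraries, out of 17983 genes listed in at least 1 library and 15987 listed in all of them. The RNA came from keratinocytes that had been freed from back skin epidermis with dispase and trypsin. The knockout mice carried the genotype Gsdma1KO/KO;Gsdma3fx/fx;K14-Cre, in which Cre under the keratin 14 promoter acts on floxed Gsdma3 in basal cells of the epidermis and their descendants, and in the hair follicle. The control mice were labelled wild type. The back was rubbed either with acetone and olive oil mixed 4 to 1 (AOO below), a mixture used to disturb the skin barrier, or with water alone, on 3 days with 2 rubbings each, and every sample was labelled day 5. This gave 3 knockout AOO, 2 knockout water, 3 control AOO and 2 control water libraries, with no age or sex in the labels. The labels do not state that the libraries of a group came from separate mice, so p-values here measure spread among libraries, some of which may be technical.

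A tight junction is a belt of strands that joins neighbouring cells and limits the passage of water, ions and larger molecules between them. Claudins form the strands, the MARVEL proteins occludin and tricellulin shape them along cell sides and at the corners where cells meet, and the junctional adhesion molecule encoded by F11r lies beside them. On the inner side, the zonula occludens proteins and cingulin tie the strands to actin. In the epidermis functional tight junctions sit in the granular layer, below the cornified layer, although Cldn1 is made through most of the living layers. Mice without Cldn1 lose water through the skin and die soon after birth.

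The libraries held 15914663 to 21812292 reads. Values are normalised read counts, the deposited counts per gene divided by a factor for library depth, and they compare libraries for 1 gene. Gsdma3, the floxed target, lay between 0 and 2.65 in the knockout libraries, against 62.5 to 283 in the control libraries. Gsdma, the gene of the other knockout allele, was still read in the knockout libraries, at 170 to 843, against 199.9 to 732 in the control libraries. The labels do not say which part of it the allele removes, so this does not check the labels. The basal keratinocyte keratin Krt5 reached 211030 to 396200 in all 10 libraries. Control water replicate 2 stood apart by hair shaft and inner root sheath genes, which summed to 12006 there and to 387 to 2828 in the other libraries. Control water replicate 1 stood apart by skeletal muscle genes, which summed to 749.6 there and to 158 to 319 in the other libraries, and it had the highest fibroblast (10284) and T cell (15669) sums. The 4 Y-linked genes measured summed to 3583 to 4967 in the 6 AOO libraries and were at 0 in the 4 water libraries of both genotypes. Treatment and sex therefore cannot be told apart in any comparison of AOO with water.

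The sequences just upstream of 4 of the genes are shown because these genes mark the range of responses described below: Cgn, Ocln and Cldn4 were among those lower in knockout epidermis after AOO, and Tjp3 was the exception. Each run is the 250 bases before a RefSeq transcription start in build GRCm38.p6, on the strand of the gene. This is the minus strand for all 4. Capitals mark matches on either strand to 4 motifs: AACNGGTT, the core bound by grainyhead-like factors; CAGGTG, an E-box bound by Snail and Zeb repressors; TGANTCA, the AP-1 motif; and GGGCGG, the GC box. None of the marked matches overlap.
Cgn, cingulin, chr3:94786483-94786732: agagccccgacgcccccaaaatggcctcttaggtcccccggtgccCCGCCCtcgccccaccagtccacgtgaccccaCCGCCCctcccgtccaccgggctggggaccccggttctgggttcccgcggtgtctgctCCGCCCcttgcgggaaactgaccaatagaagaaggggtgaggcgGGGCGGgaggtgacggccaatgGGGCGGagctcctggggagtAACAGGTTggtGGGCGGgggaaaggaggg
Ocln, occludin, chr13:100552719-100552968: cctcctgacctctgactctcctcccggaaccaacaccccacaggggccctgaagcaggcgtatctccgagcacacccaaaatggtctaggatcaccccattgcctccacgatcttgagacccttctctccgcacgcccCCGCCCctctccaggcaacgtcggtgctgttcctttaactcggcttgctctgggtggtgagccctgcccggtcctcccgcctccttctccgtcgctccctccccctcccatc
Cldn4, claudin 4, chr5:134946935-134947184: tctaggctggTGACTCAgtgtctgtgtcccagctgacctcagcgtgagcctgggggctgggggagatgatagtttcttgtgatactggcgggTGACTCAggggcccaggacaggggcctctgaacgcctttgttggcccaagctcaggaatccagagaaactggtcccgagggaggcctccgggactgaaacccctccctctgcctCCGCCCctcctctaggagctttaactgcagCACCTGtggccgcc
Tjp3, zonula occludens 3, chr10:81291582-81291831: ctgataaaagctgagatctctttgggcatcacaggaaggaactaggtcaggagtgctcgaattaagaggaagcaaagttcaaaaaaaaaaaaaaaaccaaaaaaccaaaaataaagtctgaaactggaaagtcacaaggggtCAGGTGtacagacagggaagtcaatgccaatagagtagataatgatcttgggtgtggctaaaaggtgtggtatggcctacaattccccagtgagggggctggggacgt

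Cgn held 6 GC boxes and the grainyhead-type core 29 bases before its start, the only such core among the 9 genes; 1.79% of 32851 mouse promoter windows of the same length held one. Cldn4 held 2 AP-1 motifs, and F11r was the only other of the 9 with one, against 6.75% of all windows. The E-box lay upstream of Cldn4, Tjp3 and F11r, 3 of 9 genes, against 17.2% of all windows. GC boxes lay upstream of 7 of 9, all but Cldn7 and Tjp3, against 32.7% of all windows. Ocln, Cldn7, Tjp3 and Marveld2 each had 2 promoter windows, and only the window nearest the 5′ end of the gene in GENCODE was searched. Counts over the 9 genes thus hold for 1 window per gene, whereas the shares take every window. The RefSeq start used for Tjp1 lies 156537 bases downstream of the 5′ end of the gene in GENCODE. The Tjp3 window was the poorest in G and C of the 9, at 43.2%, and the Cgn window the richest, at 70.4%, around a median of 52.4% over all windows. These matches are descriptions of letters and say nothing of whether a factor binds there.

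Per kilobase of exon, the 9 genes spanned a wide range of levels. Cldn4 had the highest mean over the 10 libraries, 5006 normalised counts per kb, followed by Cldn1 at 2186 and F11r at 1971. Those 3 lay at percentiles 98.9, 97.9 and 97.7 of the 15958 genes tested. A middle group followed, with Tjp1 at 322, Tjp3 at 263, Cgn at 227 and Ocln at 206 per kb, and then Marveld2 at 120. Cldn7 was far lower at 12.3 per kb and rested on only 5 to 61 reads per library. Neighbours in this order overlapped in their ranges over libraries, apart from the steps between F11r (1024 to 2835 per kb) and Tjp1 (202 to 501) and between Marveld2 (84.0 to 195) and Cldn7 (2.42 to 29.3). Cldn7 varied most, 12.1-fold between its highest and lowest library, and Cldn4 next, 7.70-fold. For all but Tjp3 the lowest of the 10 libraries was a knockout AOO library, replicate 2 for Tjp1 and replicate 3 for the other 7 genes.

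In knockout epidermis, 8 of the 9 genes were lower after AOO than after water. The 3 claudins, occludin, tricellulin, the F11r adhesion molecule, Tjp1 and Cgn all fell, by 40.0% (Cldn1) to 78.6% (Cldn7) of the group means, and only Tjp3 did not. Every knockout AOO library lay below both knockout water libraries for those 8 genes. Of all 15958 genes tested, 6.69% were called lower in this comparison and 29.2% had AOO libraries all below the water libraries. The median log2 difference was -1.05 over the 9 genes and 0.009 over all genes. Differences were tested with limma on log2(value + 1), with 1 model over all 10 libraries, and genes with a Benjamini-Hochberg adjusted p under 0.05, adjusted over all genes, are said to be called. On the recovered reads, edgeR called 7 of the 9 genes lower (12.1% of all genes in either direction), leaving out Cldn1, and DESeq2 called the same 8 (22.6% of all genes). In whole epidermal preparations, fewer cells with tight junctions and less RNA per cell cannot be told apart.

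**Figure D1:**
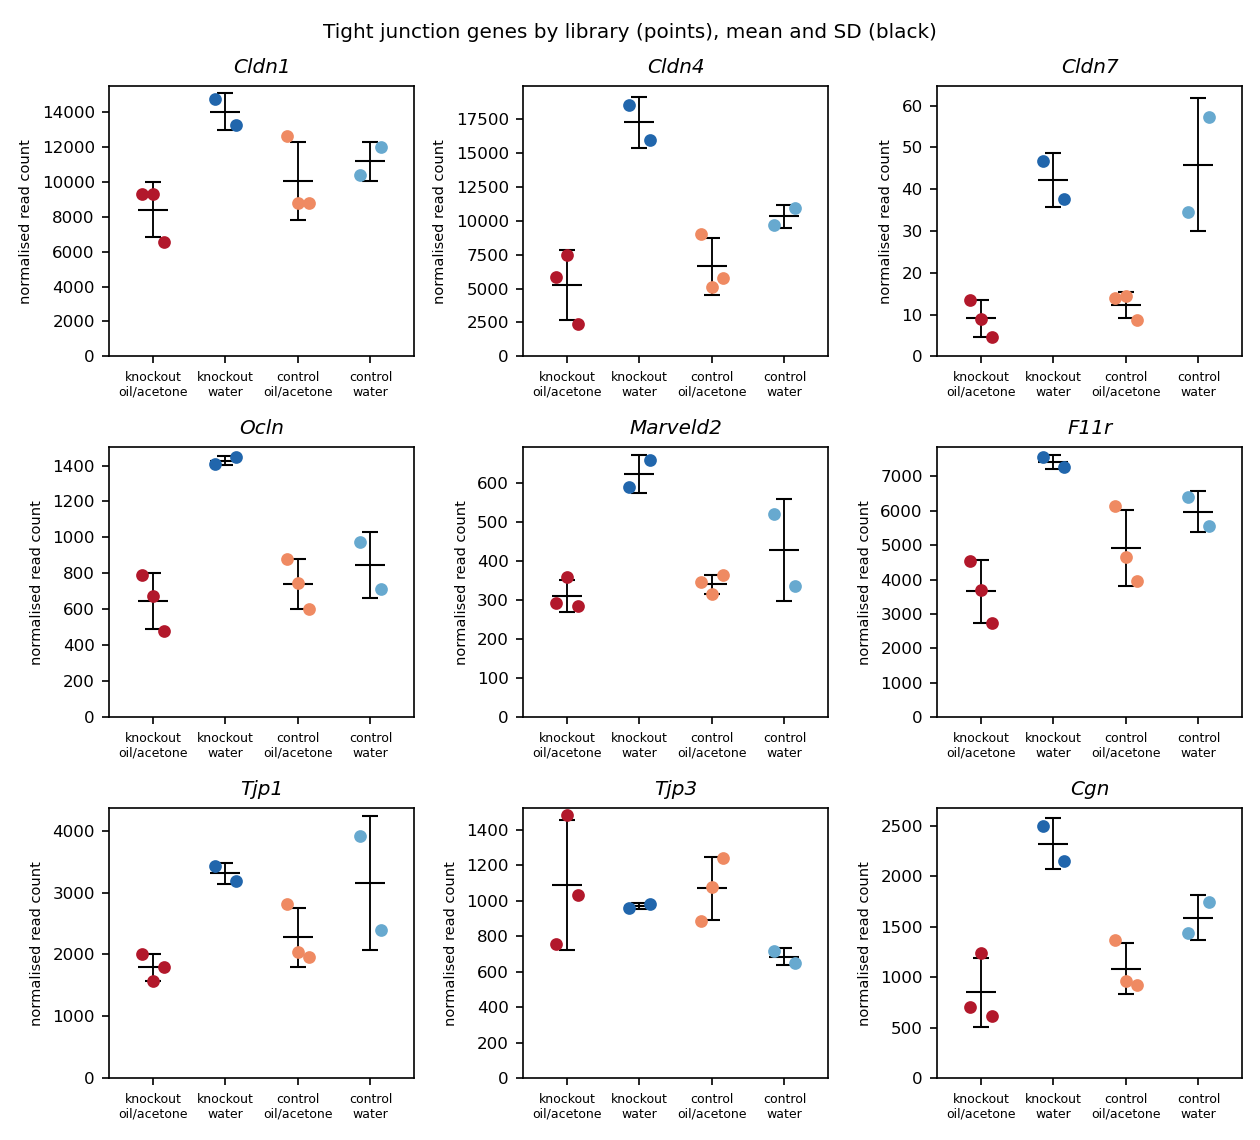
Normalised read count (vertical axis, from 0, a scale of its own for each gene) of the 9 tight junction genes in each library, with points for libraries and black marks for the group mean and SD. Groups run from knockout AOO (n = 3) and knockout water (n = 2) to control AOO (n = 3) and control water (n = 2). The knockout water points lie above the knockout AOO points in every panel except Tjp3.

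Among the strand-forming claudins, Cldn4 (GRCm38 chromosome 5, 134945119 to 134946934, minus strand) had 5833, 7512 and 2414 normalised counts in knockout AOO libraries, against 18579 and 15951 in knockout water libraries. Control libraries held 9049, 5147 and 5771 after AOO and 9713 and 10943 after water. The knockout water libraries were the highest of all 10, and AOO libraries lay below water libraries in both genotypes. In knockout mice Cldn4 fell by 1.86 ± 0.40 on the log2 scale (SE; limma adjusted p = 0.0224). Its group mean was 5253 ± 2598 after AOO (SD, n = 3) and 17265 ± 1859 after water (SD, n = 2). In control mice the difference was -0.68 ± 0.40 and did not pass (limma adjusted p = 0.509).

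Cldn1, the claudin needed for the water barrier of mouse skin (chromosome 16, 26356642 to 26371841, minus strand), had 9331, 9299.9 and 6582 normalised counts in knockout AOO libraries, against 14767 and 13268 in knockout water libraries. It had 12644, 8782 and 8786 in control AOO libraries, against 10398 and 11983 in control water libraries. The knockout groups did not overlap, whereas control AOO replicate 1 lay above both control water libraries. The fall in knockout mice was the smallest of the 8, -0.75 ± 0.21 (limma adjusted p = 0.0445). In control mice it was -0.17 ± 0.21 (adjusted p = 0.766, limma).

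Cldn7 (chromosome 11, 69964779 to 69967885, plus strand), a claudin of many simple epithelia, was scarce, at 13.5, 8.98 and 4.72 normalised counts in knockout AOO libraries, against 46.7 and 37.7 in knockout water libraries. Control AOO libraries held 13.9, 14.3 and 8.79, against 34.6 and 57.1 in control water libraries. AOO and water libraries did not overlap in either genotype. The log2 difference was -2.20 ± 0.48 in knockout mice (limma adjusted p = 0.0233) and -1.80 ± 0.48 in control mice (limma adjusted p = 0.214), and on the log2(value + 1) scale such low counts give an understated change. DESeq2 on the recovered reads called the control difference too (adjusted p = 0.0263). The 6 marker genes of simple and sweat gland epithelium summed to 93.4 to 159 in knockout AOO and 157 to 679 in knockout water libraries, and to 85.7 to 121 in control AOO and 116 to 968 in control water libraries. Their highest sum, 968, fell in control water replicate 2, which had the most Cldn7, whereas of the knockout water libraries replicate 2 had the higher sum, 679 against 157, and the lower Cldn7. Their part in the Cldn7 result was not tested.

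The ratio of Cldn4 to Cldn1 moved as well, because Cldn4 fell further. Per kilobase it was 1.67, 2.15 and 0.98 in knockout AOO libraries, against 3.35 and 3.20 in knockout water libraries. In control mice it was 1.91, 1.56 and 1.75 after AOO, against 2.49 and 2.43 after water. Water libraries were above AOO libraries in each genotype. No test was made of this ratio.

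Of the MARVEL proteins, occludin (Ocln, chromosome 13, 100496507 to 100552718, minus strand) had 791, 673 and 481 normalised counts in knockout AOO libraries, against 1409 and 1446 in knockout water libraries. Control AOO libraries held 878, 747 and 599.8, against 975 and 715 in control water libraries. The pair of knockout water libraries stood above the other 8 libraries, and the control groups overlapped. The fall in knockout mice was 1.17 ± 0.24 on the log2 scale (SE; limma adjusted p = 0.0198), beside -0.19 ± 0.24 in control mice (limma adjusted p = 0.769).

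Marveld2, which encodes tricellulin at three-cell contacts, is the neighbour of Ocln on chromosome 13 (100595957 to 100616971, minus strand). It had 292, 358 and 284 normalised counts in knockout AOO libraries, against 589 and 658 in knockout water libraries. It had 346, 315 and 364 in control AOO libraries, against 519.9 and 335 in control water libraries. The knockout water libraries were again the highest of the 10, and control water replicate 2 fell among the control AOO libraries. The log2 difference was -1.01 ± 0.21 in knockout mice (limma adjusted p = 0.0213) and -0.29 ± 0.21 in control mice (limma adjusted p = 0.587).

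F11r, the junctional adhesion molecule A (chromosome 1, 171437535 to 171464603, plus strand), had 4555, 3694 and 2728 normalised counts in knockout AOO libraries, against 7551 and 7272 in knockout water libraries. In control mice it had 6126, 4658 and 3972 after AOO, against 6391 and 5544 after water. Control AOO replicate 1 lay between the control water libraries. F11r fell to 3659 ± 914 (SD, n = 3) in knockout AOO libraries, against 7412 ± 197 (SD, n = 2) in knockout water libraries. This was a log2 difference of -1.05 ± 0.23 (limma adjusted p = 0.0232), beside -0.30 ± 0.23 in control mice (limma adjusted p = 0.612).

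The plaque genes did not move as a group. Tjp1, zonula occludens 1 and the main scaffold under the strands (chromosome 7, 65296165 to 65527781, minus strand), had 2004, 1577 and 1796 normalised counts in knockout AOO libraries, against 3431 and 3187 in knockout water libraries. Control AOO libraries held 2820.1, 2037 and 1966, against 3916 and 2390.0 in control water libraries. The highest value was in control water replicate 1, and the control groups overlapped. Tjp1 fell by 0.89 ± 0.23 on the log2 scale in knockout mice (SE; limma adjusted p = 0.034), beside -0.45 ± 0.23 in control mice (limma adjusted p = 0.44).

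Cgn, cingulin, which links the zonula occludens proteins to actomyosin (chromosome 3, 94760069 to 94786492, minus strand), had 704, 1240.4 and 612 normalised counts in knockout AOO libraries, against 2500.5 and 2147 in knockout water libraries. Control AOO libraries held 1373, 963 and 924, against 1435 and 1746 in control water libraries. AOO lay below water without overlap in each genotype. The knockout difference of -1.51 ± 0.29 had the lowest adjusted p of the 9 genes (limma, 0.016). The control difference was -0.57 ± 0.29 (limma adjusted p = 0.434).

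Tjp3, zonula occludens 3, a scaffold related to Tjp1 (chromosome 10, 81273207 to 81291581, minus strand), was the exception. It had 755, 1479 and 1032 normalised counts in knockout AOO libraries, against 959.6 and 983 in knockout water libraries. Control AOO libraries held 888, 1075 and 1242, against 717 and 649 in control water libraries. The knockout groups overlapped, while all 3 control AOO libraries lay above the control water libraries. The log2 difference was 0.11 ± 0.25 in knockout mice (limma adjusted p = 0.776) and 0.63 ± 0.25 in control mice (limma adjusted p = 0.329). Its exons share 40 bases with Apba3 on the opposite strand, and the strand setting of the counting is not given in the sources used here. How reads from these shared bases were counted is therefore not known. The ratio of Tjp3 to Tjp1 per kilobase was 0.79, 1.97 and 1.21 in knockout AOO libraries, against 0.59 and 0.65 in knockout water libraries, and 0.66, 1.11 and 1.33 in control AOO libraries, against 0.39 and 0.57 in control water libraries.

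Several other measures moved with these falls. The 5 red blood cell genes summed to 14407 to 27549 in knockout AOO libraries, against 1176 to 2544 in knockout water libraries, and all 5 were called higher. In control mice they summed to 4427 to 13396 after AOO, against 3321 to 6497 after water. Outer root sheath genes summed to 62931 to 122950 in knockout AOO libraries, against 45167 to 55525 in knockout water libraries, with 3 of 8 called higher. In control mice these sums were 38305 to 52141 after AOO and 35018 to 59429 after water. The share of all genes called higher in knockout mice was 6.74%. Over all genes, those with more than 4 kb of exon, among them Cgn, Ocln, Cldn1 and Tjp1, had a median log2 difference of -0.12 and 9.55% were called lower, whereas those under 2 kb, among them Cldn4 and Cldn7, had a median of 0.24 and 2.58% called lower. The part of these in the tight junction result was not tested.

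The calls in knockout mice rested on both water libraries. Without knockout water replicate 1 or replicate 2, none of the 9 genes passed (lowest limma adjusted p 0.138 and 0.113), and only 9 and 34 genes passed over the whole table. Without knockout AOO replicate 2 the called genes were Cgn, Cldn4 and Marveld2, and without knockout AOO replicate 3 only Cldn4. All 8 log2 differences stayed negative with any library left out.

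**Figure D2:**
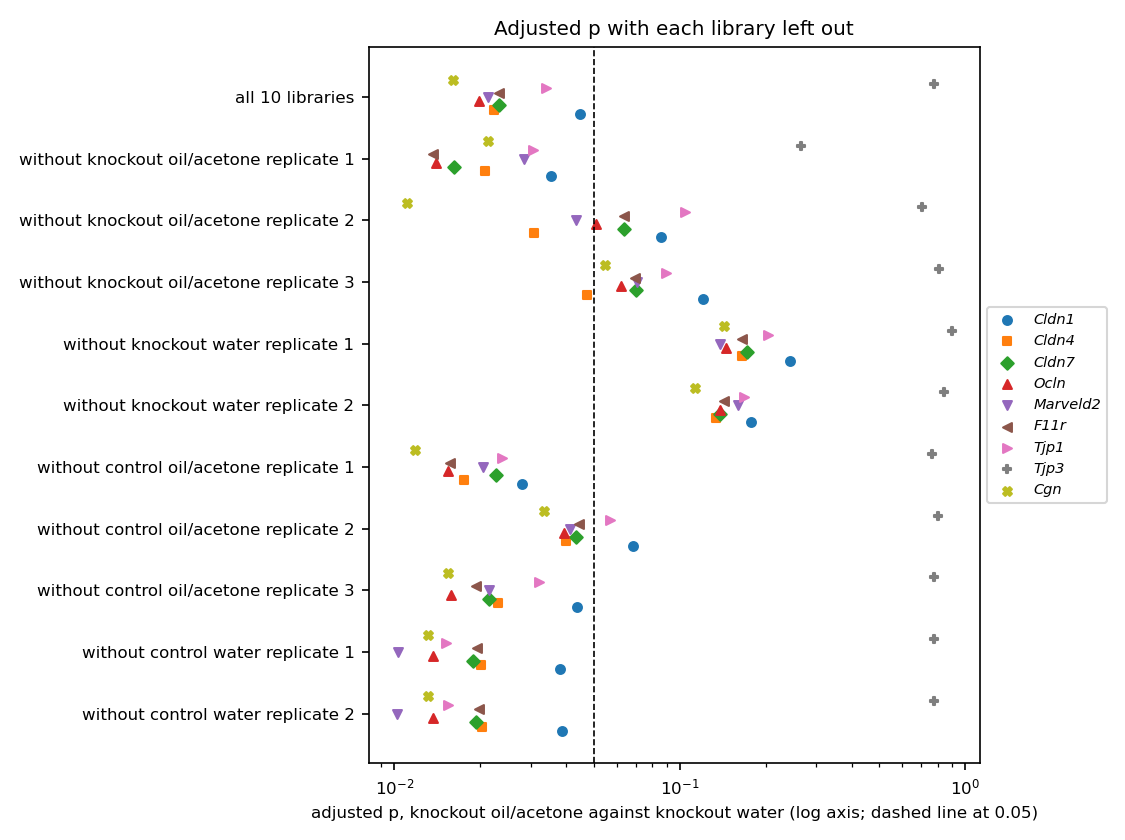
Adjusted p (horizontal log axis) of the 9 tight junction genes for knockout AOO against knockout water, with all 10 libraries and with each library left out in turn (rows); the dashed line is at 0.05. The points for 8 genes lie left of the line with all libraries and right of it when either knockout water library is left out.

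In control epidermis none of the 9 genes was called after AOO, against 0.0627% of all genes (10 genes) by limma. At an unadjusted p under 0.05 the counts were 1 lower (Cldn7) and 1 higher (Tjp3), against 12.9% of all genes in either direction. edgeR called 7 genes over the whole table (0.0438%) and none of the 9, and DESeq2 called 352 (2.29%), among the 9 only Cldn7. The log2 differences were negative for 8 of 9, with a median of -0.30, against 0.0004 over all genes. AOO lay below water without overlap for 3 of 9 (Cldn4, Cldn7 and Cgn), against 12% of all genes, and above it for Tjp3, against 12.2%. The 95% intervals still reached sizable falls, to -0.72 for Ocln and -1.57 for Cldn4, so a fall of such size was not excluded in control mice.

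The interaction tests whether the AOO effect differed between genotypes. None of the 9 genes passed it, and none of all 15958 genes did (0%). All 9 interaction terms were negative, from -0.40 ± 0.69 for Cldn7 to -1.19 ± 0.57 for Cldn4, with a median of -0.71, against 0.03 over all genes. At an unadjusted p under 0.05 there were 4 of 9 (Cgn, Ocln, F11r and Marveld2), against 5.73% of all genes in that direction, and the lowest limma adjusted p was 0.372 (Ocln). By edgeR no gene of the table passed, and by DESeq2 169 did (1.1%), none of them among the 9. A difference between genotypes in the response of these genes was therefore not shown.

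**Figure D3:**
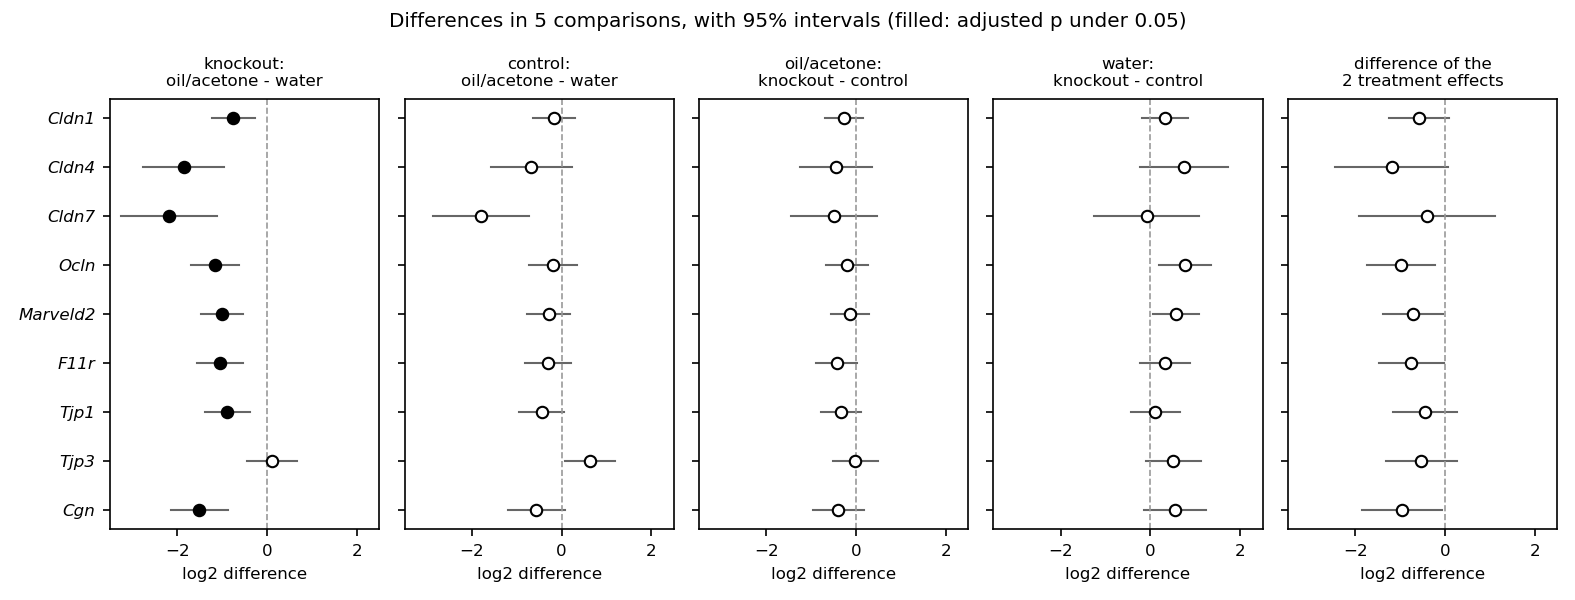
Log2 differences (horizontal axis) of the 9 tight junction genes in 5 comparisons, with 95% intervals from limma as lines; filled points have an adjusted p under 0.05. Filled points appear only in the knockout AOO against water panel, for 8 genes.

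The 2 genotype comparisons lay on opposite sides of 0. Under AOO, no gene of the 9 was called between knockout and control mice, and none of all genes tested was (0%). All 9 log2 differences were negative, from -0.48 ± 0.43 (Cldn7) to -0.01 ± 0.22 (Tjp3), with a median of -0.33, against 0.02 over all genes. The groups overlapped for every one of the 9, and none had an unadjusted p under 0.05, against 12% of all genes. By DESeq2 168 genes of the table passed (1.16%) and by edgeR 0, none of the 9 among them. F11r had the lowest p, with a log2 difference of -0.43 ± 0.21 (limma adjusted p = 0.432).

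Under water, again none of the 9 was called and none of all genes was by limma (0%), while DESeq2 called 6 genes of the table (0.0376%), none of the 9, and edgeR 0. Knockout libraries lay above control libraries without overlap for 7 of 9 genes, all but Cldn7 and Tjp1, against 16.9% of all genes. The log2 differences were positive for 8 of 9, with a median of 0.51, against -0.01 over all genes. Ocln was 0.77 ± 0.26 higher in knockout water libraries (limma adjusted p = 0.963), and Marveld2 0.58 ± 0.23 (limma adjusted p = 0.963). These were the 2 with an unadjusted p under 0.05, against 1.76% of all genes in that direction. The 2 knockout water libraries are the same ones that AOO is set against in knockout mice, so the 2 comparisons share those high values.

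The other tight junction genes were counted from a list of 57, of which 40 were listed and 39 tested. In knockout mice 8 of 39 were called lower after AOO and 1 higher, with a median log2 difference of -0.30. Over all genes tested the shares were 6.69% lower and 6.74% higher. Lsr, angulin 1, which brings tricellulin to three-cell contacts, had 979, 1081 and 778 normalised counts in knockout AOO libraries, against 2147 and 2133 in knockout water libraries. Its difference was -1.19 ± 0.17 (limma adjusted p = 0.00943), with no overlap. Marveld3, the remaining MARVEL protein of tight junctions, had 229.7, 263 and 257 in knockout AOO libraries, against 439 and 428 in knockout water libraries (-0.80 ± 0.22, limma adjusted p = 0.0404).

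Cell polarity genes on the list did not all pass. Pard6b, a partner of atypical protein kinase C, had 960.3, 582 and 456 normalised counts in knockout AOO libraries, against 2226 and 2229 in knockout water libraries (-1.81 ± 0.35, limma adjusted p = 0.0169). Mpp5, the scaffold PALS1 of the Crumbs complex, fell by 0.94 ± 0.16 on the log2 scale (limma adjusted p = 0.0145). Pard3, Pard6a, Pard6g and Patj, singled out after their values were seen, were not called, at -0.30, 0.43, -0.58 and -0.30 on the log2 scale. The remaining 4 called lower, named after their values were seen, were Crb3, Magi3, Prkci and Amotl2, at -0.83 to -1.36. Of these, Crb3 (-0.83) and the atypical protein kinase C gene Prkci (-0.86) are also cell polarity genes. The related kinase gene Prkcz was not called, at 0.004. Rab13, a small GTPase of junction traffic, had 137, 168 and 157 normalised counts in knockout AOO libraries, against 57.3 and 40.1 in knockout water libraries. This was a rise of 1.65 ± 0.38 (limma adjusted p = 0.0254). Rab13 lost its call without knockout AOO replicate 2 and without knockout AOO replicate 3. These counts also dropped to 0 lower and 0 higher without either knockout water library, and the lower count to 3, 1 and 3 without knockout AOO replicate 2, knockout AOO replicate 3 and control AOO replicate 2 in turn.

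None of the 8 other claudins tested was called in knockout mice after AOO. Cldn5, the claudin of blood vessels, singled out after its values were seen, had 8.28, 21.6 and 15.1 in knockout AOO libraries, against 3.53 and 0 in knockout water libraries (limma adjusted p = 0.066). The 8 endothelial marker genes summed to 388 to 563 in knockout AOO libraries, against 126 to 265 in knockout water libraries. In control mice none of the 39 other genes was called after AOO; the lowest p belonged to the guanine nucleotide exchange factor Arhgef2 (-0.87 ± 0.28, limma adjusted p = 0.269) and to Cgnl1, paracingulin (-0.82 ± 0.27, limma adjusted p = 0.271). Without control AOO replicate 1 Arhgef2 was called lower (-1.16, limma adjusted p = 0.0362). Between genotypes none of the 39 was called under either treatment by limma or edgeR, but under AOO DESeq2 called Marveld3, Mpp5 and Amotl1 lower and Cgnl1 higher in knockout libraries (1.16% of all genes in either direction). Without knockout AOO replicate 1 limma called Tjap1 lower under AOO (-0.95, limma adjusted p = 0.0411). The lowest p under AOO belonged to Amotl1 (-0.60 ± 0.14) and Marveld3 (-0.77 ± 0.19), both with a limma adjusted p of 0.314, and under water to Cgnl1 (0.85 ± 0.30) and Lsr (0.53 ± 0.19), both at 0.963. For the interaction it belonged to Mpp5 (-0.83 ± 0.23) and Lsr (-0.80 ± 0.24), both with a limma adjusted p of 0.356.

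**Figure D4:**
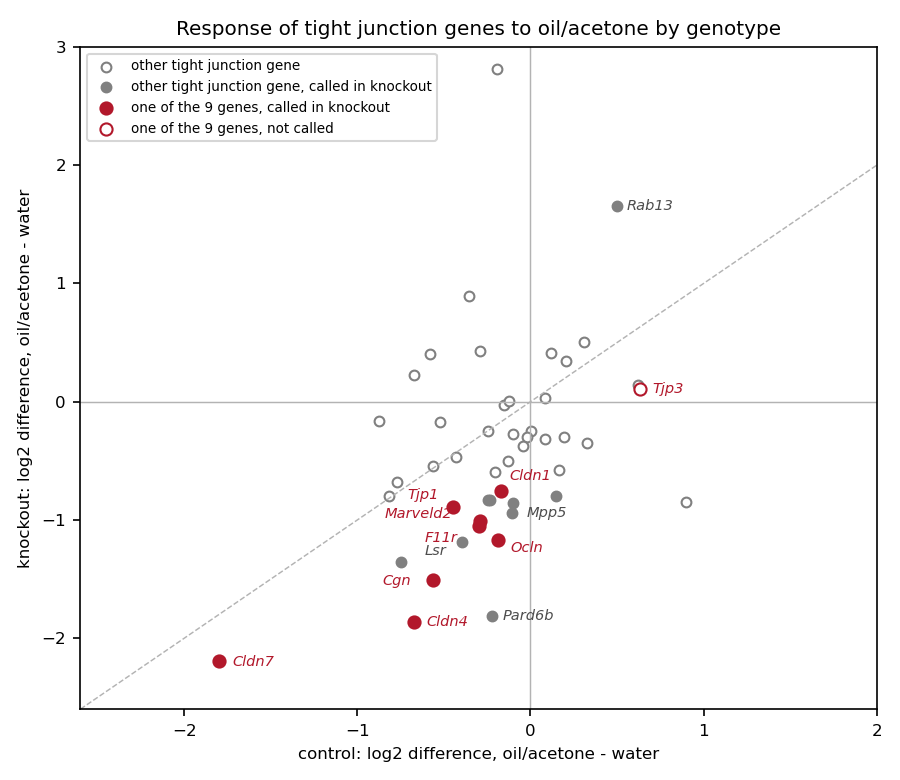
Log2 difference of AOO against water in knockout mice (vertical axis) and in control mice (horizontal axis) for the 9 tight junction genes (red) and 39 other tight junction genes (grey); filled points were called in knockout mice and the dashed line marks equal differences. The 8 filled red points lie below the dashed line, and Tjp3 lies near 0.11 on the vertical axis.

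Grainyhead-like factors and Klf4 are known regulators of epidermal barrier genes, and Snail and Zeb factors of junction genes. The list of 13 transcription factors held these and also Ovol1, Ovol2, Elf3, Trp63 and Twist1. Of the 13, 5 were called lower and none higher in knockout AOO libraries, against 6.69% and 6.74% of all genes. Their differences were negative for 7 and positive for 6, with a median of -0.31. Grhl3, required in mice for barrier formation, had 2543, 2848 and 1597 normalised counts in knockout AOO libraries, against 4853 and 4888 in knockout water libraries (-1.11 ± 0.26, limma adjusted p = 0.0285). Grhl3 was called in 18 of 22 alternative fits, described below. Klf4 differed by 0.10 ± 0.20 (limma adjusted p = 0.73). The other 4 called lower, named after their values were seen, were Grhl1, Ovol1, Trp63 and Snai2, the last of them a repressor of junction genes.

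Adherens junction genes hold cells together just below the tight junction in simple epithelia. In knockout AOO libraries 2 of 10 were called lower, against 6.69% of all genes. All 10 differences were negative, with a median of -0.47, against 0.009 over all genes. Cdh1, E-cadherin, had 20760.0, 16016 and 13786 normalised counts in knockout AOO libraries, against 34293 and 30765 in knockout water libraries (-0.97 ± 0.23, limma adjusted p = 0.0275). Cdh1 was called in 18 of 22 alternative fits, described below. Ctnnb1, beta-catenin, differed by -0.03 ± 0.13 (limma adjusted p = 0.877). Vcl, vinculin, was the other gene called lower, named after its values were seen.

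Genes of the granular layer, where epidermal tight junctions sit, went the other way. In knockout mice 4 of 6 were called higher after AOO and none lower, against 6.74% of all genes called higher, with a median log2 difference of 2.07. Flg, filaggrin, had 3735, 9497 and 1989 normalised counts in knockout AOO libraries, against 281 and 191 in knockout water libraries (4.15 ± 0.58, limma adjusted p = 0.00796). Lor, loricrin, differed by 1.55 ± 0.48 (limma adjusted p = 0.056). In 22 alternative fits, described below, Flg was called in 20 and Lor in 7. In control mice 1 of 6 granular genes was called higher, against 0.0564% of all genes, with a median of 1.89. Of 5 suprabasal genes 2 were called higher in knockout mice, against 6.74% of all genes, with a median log2 difference of 0.37. Differences were positive for 4 of the 5 and negative for Dsg1a (-0.52), named after its values were seen. Among the 2 called was the keratin Krt1 (1.92 ± 0.37, limma adjusted p = 0.0164), called in 20 of the 22 alternative fits. Krt10 differed by 0.11 ± 0.33 (limma adjusted p = 0.836). Of 6 basal genes 1 was called lower, against 6.69% of all genes, with a median log2 difference of -0.52. It was Krt15 (-0.91 ± 0.19, limma adjusted p = 0.0219), named after its values were seen. Basal differences were negative for 4 genes and positive for 2, Krt5 and Krt14. Krt5 (0.03 ± 0.31, limma adjusted p = 0.947) and Krt14 (0.55 ± 0.26, limma adjusted p = 0.161) did not pass. In single libraries, the median centred level of the tight junction genes was -0.33, -0.15 and -0.77 in knockout AOO libraries, against 0.60 and 0.76 in knockout water libraries. That of the granular genes was 0.66, 1.66 and 0.43 in knockout AOO libraries, against -1.35 and -1.27 in knockout water libraries.

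**Figure D5:**
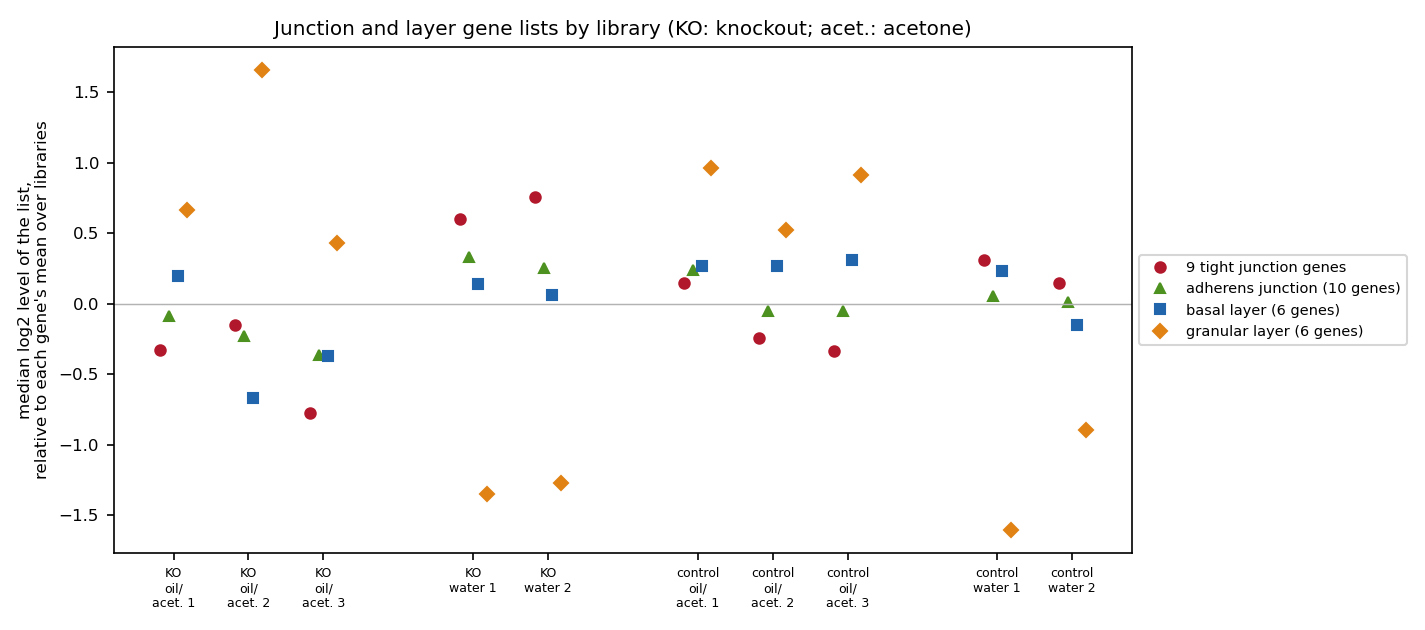
Median log2 level of 4 gene lists in each library, relative to each gene's mean over the 10 libraries (vertical axis), for tight junction, adherens junction, basal layer and granular layer genes. In knockout mice tight junction medians are below 0 after AOO and above 0 after water, and granular medians are the reverse.

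The genes most like the 9 in profile were sought among 11412 other genes with a mean of 50 or more. Predicted genes and genes with only a clone-type name were left out. Likeness was the root-mean-square difference (log2 scale) between a gene's centred levels over the 10 libraries and the median of the 9 tight junction genes. The nearest were Abhd6, a lipid hydrolase (0.11), Sqstm1, the autophagy receptor p62 (0.12), Inpp5a (0.12), Cgrrf1 (0.12) and Ippk (0.13). Abhd6 had 441, 523 and 373 normalised counts in knockout AOO libraries, against 1061 and 1023 in knockout water libraries, and 693, 479 and 428 in control AOO libraries, against 768 and 683 in control water libraries. It was high in the same knockout water libraries as the tight junction genes. Of the 9 themselves, F11r lay closest to their median (0.15) and Ocln next (0.17), while Tjp3 (0.63) and Cldn7 (0.73) lay farthest. This likeness is a description over 10 libraries that share 4 groups.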

How the data were processed

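RNA-seq was read in 10 libraries of back skin keratinocytes. Per the submitters' processing notes, the authors used Trimmomatic 0.38, featureCounts 2.0.0 and DESeq2 1.26.0 with GRCm38 (mm10). Which aligner, annotation release and strand setting they used is not given in the sources used here. The deposited values are a normalised signal, gene read counts divided by a depth factor for each library. Within each library 100% of values were whole multiples of 1 step (tolerance 0.1 read), so whole reads were recovered, 15914663 to 21812292 per library, for count tests as alternatives. No pair of libraries held identical values (0 pairs). Read numbers limit precision for Cldn7 in particular. All 17983 identifiers matched the GENCODE annotation of GRCm38.

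Genes listed in all 10 libraries that reached 10 in at least 2 of them (15958 genes) were kept, libraries were rescaled by median-of-ratios factors (0.995 to 1.004), and log2(value + 1) was tested two-sided with limma 3.58.1 (R 4.3.3; 4 group means, eBayes with a trend). Adjusted p-values are Benjamini-Hochberg over all genes tested. Intervals are 95%. edgeR 4.0.16 (quasi-likelihood) and DESeq2 1.42.0 on recovered reads, other pseudocounts (10 and 0.5), filters and scalings, subsets of groups, a replicate block and each library left out were the alternatives. The fit was also run on simulated counts, and the outcome is not given here, so it is no measure of what could be detected. The alternatives for the other genes named were added after the data were seen. The 9 genes and the lists were chosen with earlier results of these data known, so no count over them is independent support. Other genes were named by rule: up to 4 called in each direction with the lowest adjusted p, or the 2 with the lowest p where none was called, the 5 nearest profiles, and the first 2 of each other list. Of the wider list of tight junction genes, 1 item is not reported here.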

Additional observations from a re-analysis of the deposited data

How the results depend on the processing

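Limits first: 2 of the 4 groups had 2 libraries, so leaving out a library there leaves a lone library that is assumed to vary like the others. Cldn7 rests on few reads and was not tested at a minimum of 50. The interaction could not be fitted on 2 groups alone or on genes listed in 2 groups.

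For knockout AOO against water, 8 genes were called lower in all alternatives that kept every library, apart from 7 with a minimum of 50 and 7 with edgeR, where Cldn1 was lost. With each library left out in turn the count ran from 0 to 8; it was 6 without control AOO replicate 2, where Cldn1 and Tjp1 were lost. Of the other tight junction genes 8 were called lower, but 4 with libraries scaled to equal totals, a scaling that moved the median of all genes to 0.13. The count was 6 with edgeR, 10 with DESeq2 and 9 with the replicate block. It ran from 1 to 9 with a knockout AOO library left out. Those called higher numbered 1, but 2 with the 2 groups compared alone. In control mice DESeq2 called 1 of the 9 genes lower, Cldn7. Among the other tight junction genes, Tjap1 was called lower in knockout than in control AOO libraries without knockout AOO replicate 1, and Arhgef2 lower after AOO in control mice without control AOO replicate 1.

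Of the values of the 9 genes in the knockout AOO against water comparison, 165 kept direction and side of the threshold, 31 lost the call and 1 reversed. In the other 4 comparisons 11 values of the 9 genes reversed, none of them called. With a library left out, log2 differences in knockout AOO against water ran from -0.14 to 0.35 for Tjp3, -0.047 to 0.29 for Klf4, -0.065 to 0.0085 for Ctnnb1, -0.26 to 0.20 for Krt5 and -0.21 to 0.28 for Krt10. In control mice they ran from -0.41 to 0.034 for Ocln and -0.60 to 0.021 for Marveld2. Between genotypes they ran from -0.78 to 0.032 for Cldn4 and -0.26 to 0.22 for Tjp3 under AOO, and from -0.44 to 0.27 for Cldn7 and -0.25 to 0.46 for Tjp1 under water. Tjp3 between genotypes under AOO was 0.080 at equal totals, 0.034 with edgeR and 0.028 with DESeq2, and Ctnnb1 in knockout AOO against water was 0.091 at equal totals. The cause was not tested.

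Whether replicate numbers pair the libraries was not settled. Correlations of same-numbered deviations ran from -0.105 to 0.307. Replicate 1 gave the highest, 0.307 between genotypes under AOO and 0.303 between treatments in control mice. Within each water group the deviations of the replicates mirror each other, so the correlations that involve a water group cannot decide the question. Between genotypes under AOO, with no water group, they were of mixed sign, at 0.307, -0.105 and 0.131 for replicates 1, 2 and 3. With the replicate block, 8 genes were still called lower in knockout mice, the same 8, and 2766 genes passed over the whole table, against 2143.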
